A study of Mus musculus with 61 samples.

Results

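Drd2 and the 3 genes beside it that differ between the sorted cell classes, Ankk1, Ttc12 and Gm4894, are described here across sorted nuclei of the mouse nucleus accumbens. They are 4 of the 55401 gene rows in the deposited count table, found by symbol, and all 4 were matched. The members were selected on their counts in D2 against D1 nuclei in these same libraries, so that difference is given below as a description without a test. Male mice carried the Cre-dependent allele LSL-eGFP::L10a, which puts green fluorescent protein on a ribosomal protein, together with either D1-Cre or D2-Cre. Nuclei were sorted by fluorescence from frozen bilateral punches, and total RNA was sequenced with a stranded kit for very small inputs. The mice received saline or morphine daily for 15 days, spent 30 days in the home cage, and were killed 1 h after a challenge with saline or morphine. In a group name the first letter gives the repeated treatment and the second the challenge, so MS stands for repeated morphine and a saline challenge. The doses are listed without being assigned to mice, so no result refers to a dose. D1 nuclei gave 8 libraries of SS, 8 of SM, 9 of MS and 7 of MM, and D2 nuclei gave 7 of SS, 7 of SM, 8 of MS and 7 of MM. The labels do not say whether each library came from its own mouse, so the spread between libraries may be partly technical. D1-Cre mice gave all D1 libraries and D2-Cre mice all D2 libraries. The cell class, the mouse line and any counts contributed by the D2 driver construct therefore cannot be told apart in a comparison of D2 with D1.

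Drd2 encodes the dopamine D2 receptor, which couples to inhibitory G proteins and lowers cyclic AMP. In the striatum it marks the projection neurons of the indirect pathway, which also make enkephalin and the adenosine A2a receptor, while D1 receptor neurons form the direct pathway. Cholinergic interneurons and the terminals of dopamine neurons carry the D2 receptor as well. Ankk1 encodes an ankyrin repeat protein with a kinase domain and lies tail to tail with Drd2. Ttc12 encodes a tetratricopeptide repeat protein that is needed to assemble the dynein arms of motile cilia. Gm4894 is a protein-coding gene model that has only a systematic name.

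The 4 genes lie in 1 row on chromosome 9 of mm10, in a stretch of 236 kb from the start of Gm4894 to the end of Ttc12. Gm4894 (ENSMUSG00000054156.8) spans chr9:49250531-49280594 on the plus strand. Drd2 (ENSMUSG00000032259.8) spans chr9:49340627-49408177 on the plus strand, which is 67.6 kb and starts 60.0 kb beyond the end of Gm4894. Ankk1 (ENSMUSG00000032257.6) spans chr9:49415194-49427021 and Ttc12 (ENSMUSG00000040219.4) spans chr9:49436963-49486225, both on the minus strand. The gap is 7.02 kb between Drd2 and Ankk1 and 9.94 kb between Ankk1 and Ttc12. Counts covered the whole gene span, introns included. No source used here names the strand setting of the counting, so reads of either strand may have been counted for a gene.

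Promoter sequences are shown for the members that the RefSeq table holds, Drd2, Ttc12 and Gm4894, because these genes differ together between the classes. The sequences are from RefSeq on GRCm38.p6, printed 5′ to 3′ on the strand of the gene and limited to bases upstream of the annotated gene. Capitals mark the GC box, GGGCGG on either strand.
Drd2, chr9:49340153-49340359, plus strand: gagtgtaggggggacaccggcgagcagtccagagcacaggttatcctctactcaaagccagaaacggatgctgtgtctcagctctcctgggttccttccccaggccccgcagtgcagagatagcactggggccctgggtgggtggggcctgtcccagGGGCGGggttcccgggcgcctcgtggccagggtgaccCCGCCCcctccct
Ttc12, chr9:49486276-49486475, minus strand: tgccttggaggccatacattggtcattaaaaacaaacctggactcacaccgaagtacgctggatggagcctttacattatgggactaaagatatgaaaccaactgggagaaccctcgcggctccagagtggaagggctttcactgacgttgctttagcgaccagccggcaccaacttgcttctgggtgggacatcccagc
Gm4894, chr9:49250281-49250530, plus strand: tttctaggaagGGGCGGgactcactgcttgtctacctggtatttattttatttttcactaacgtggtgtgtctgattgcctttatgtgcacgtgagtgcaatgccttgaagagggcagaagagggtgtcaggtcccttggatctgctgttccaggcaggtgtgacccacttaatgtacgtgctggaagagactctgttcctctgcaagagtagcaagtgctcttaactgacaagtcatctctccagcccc

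In the full windows of 300 bases, the GC box occurred 2 times for Drd2, 1 time for Gm4894 and 1 time for Ttc12, there outside the printed stretch. Among 32851 promoters of the same length, 35.7% held it. Neither TATAAA, found in 13.6% of those promoters on either strand, nor the cyclic AMP response element TGACGTCA, found in 1.79%, occurred in any of the 3 windows. The windows also differed in base composition, with 70.3% G and C and 23 CpG for Drd2, 56.3% and 14 for Ttc12, and 50% and 5 for Gm4894. The Drd2 window was thus the richest in CpG of the 3, and 78.5% of all promoters held fewer CpG than it.

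Totals ran from 11518606 to 26108954 counts per library, with a median of 17924400. Levels below are CPM, counts divided by library size in the usual unit, after TMM scaling (edgeR's correction of library size), unless named as unscaled. Counts also fell on genes that the striatum is not known to transcribe, and their density over 1435 receptor genes of the nose (olfactory and vomeronasal) served as a background. It ran from 0.057 to 0.659 unscaled CPM per kb of gene span. A level per kb divided by the density of the same library is called the multiple of background. D1 SS replicate 1 stood apart, with a TMM factor of 0.388 against at least 0.811 in the other D1 libraries, and with the lowest density. It also held 769 CPM summed over the cortical glutamatergic markers, against at most 196 in the other D1 libraries, and 836 CPM over the astrocyte markers, against at most 293. Over the oligodendrocyte markers it held 385 CPM, against at most 273. These sums are TMM-scaled, so its low TMM factor raises them, and unscaled sums were not compared. Of the astrocyte sum, 787 CPM came from Slc1a2, while Aldh1l1, Slc1a3, Gja1, Gfap and Aqp4 were each at their lowest of D1. Of the oligodendrocyte sum, Mbp gave 285.5 CPM and Cnp 59.5 CPM, while Mag, Mobp and Mog were each at their lowest of D1. The part of these cell types in the results that rest on this library was not tested.

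Drd2 was the most abundant of the 4 genes per kb in both classes, and its mean level was 10.3 times higher in D2 than in D1 nuclei. In D1, the lowest, median and highest library held 48.1, 77.8 and 270 CPM in SS and 56.2, 71.5 and 202 CPM in SM. In MS they held 49.96, 57.3 and 86.3 CPM, and in MM 74.1, 81.3 and 128 CPM. The libraries that stood above the rest of the D1 class were D1 SS replicate 1 at 270 and D1 SM replicate 2 at 202 CPM. Without TMM scaling D1 SS replicate 1 held 105 CPM, below D1 SS replicate 4 at 119 CPM and D1 SM replicate 2 at 164 CPM. In D2, the lowest, median and highest library held 374, 567.96 and 863 CPM in SS and 417, 705 and 951 CPM in SM. In MS they held 432, 926 and 2405 CPM, and in MM 296, 994 and 1772 CPM. The lowest D2 library, MM replicate 7 at 296 CPM, lay above the highest D1 library by a factor of 1.10, and the groups of D2 overlapped each other throughout. Without TMM scaling the same gap was wider, from 164 CPM in the highest D1 library to 342 CPM in the lowest D2 library.

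The class means of Drd2 were 889 ± 507 CPM over the 29 D2 libraries (SD) and 85.9 ± 45.8 CPM over the 32 D1 libraries (SD), a ratio of 10.3. Without D1 SS replicate 1 the D1 mean was 79.9 ± 31.6 CPM (SD, n = 31) and the ratio was 11.1. Within treatments, edgeR's log2 difference of D2 from D1 was 2.61 ± 0.34 (SE) in SS and 2.95 ± 0.34 in SM. It was 4.23 ± 0.34 in MS and 3.46 ± 0.37 in MM. The difference was thus present in each treatment and was numerically largest where the history was morphine and the challenge saline. As multiples of background, the mean was 3.52 in D1 and 29.3 in D2. The D1 mean fell to 2.75 without D1 SS replicate 1, which alone lay at 27.2 times its own low background.

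Ankk1 had the second highest level per kb in both classes. Its D1 libraries ran from 7.17 to 17.7 CPM with a median of 10.5, and its D2 libraries from 32.7 to 108 CPM with a median of 50.1. No library overlapped between the classes, and the mean ratio was 4.72. The mean level was 53.5 ± 17.99 CPM over the 29 D2 libraries (SD), or 9.90 times background. It was 11.3 ± 2.60 CPM over the 32 D1 libraries (SD), or 2.37 times background. The D2 group means were 48.0 ± 10.1 CPM in SS, 46.8 ± 6.97 in SM, 65.8 ± 26.4 in MS and 51.6 ± 15.99 in MM. MS replicates 1 and 2, at 101 and 108 CPM, stood above every other library for Ankk1.

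Ttc12 was less variable than Drd2 among D2 libraries. It ran from 9.52 to 41.1 CPM in D1, with a median of 34.7, and from 71.8 to 138 CPM in D2, with a median of 123. The classes did not overlap, and the ratio of means was 3.60. The coefficient of variation over the 29 D2 libraries was 11.1% for Ttc12, against 57.1% for Drd2 and 33.7% for Ankk1. As a multiple of background, Ttc12 stood at 5.28 ± 0.794 over the 29 D2 libraries (SD) and at 1.54 ± 0.178 over the 32 D1 libraries (SD). Its D1 multiple was close to that of Htr3b, a serotonin receptor gene farther along the chromosome, at 1.46 ± 0.147.

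Gm4894 differed least between the classes. Its libraries ran from 6.18 to 24.8 CPM in D1, with a median of 20.0, and from 22.1 to 44.7 CPM in D2. In 28 of 29 D2 libraries it lay above every D1 library, and the exception was D2 MS replicate 3 at 22.1 CPM. The mean was 38.3 ± 4.17 CPM over the 29 D2 libraries (SD) and 19.1 ± 3.91 CPM over the 32 D1 libraries (SD), a ratio of 2.004. In multiples of background this was 1.42 ± 0.151 in D1 and 2.73 ± 0.463 in D2.

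**Figure D1:**
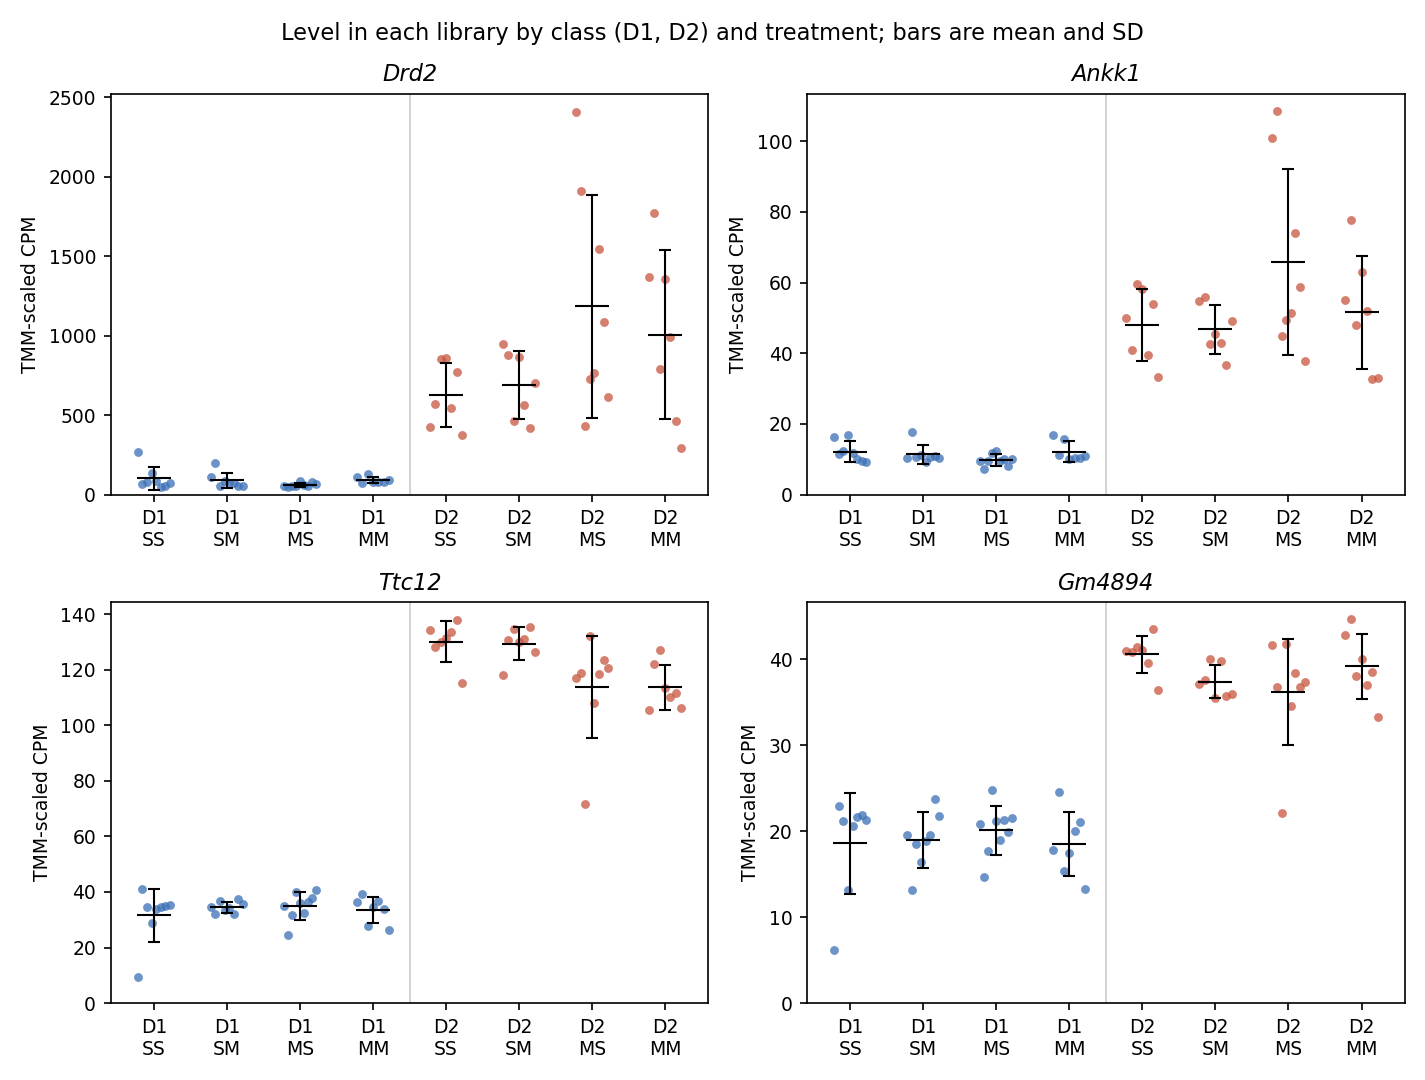
TMM-scaled CPM (linear axes from 0) of Drd2, Ankk1, Ttc12 and Gm4894 in each library, by class and treatment; points are libraries, bars are the group mean and SD. The Drd2 points of D2 spread from 296 to 2405 CPM, while those of Ttc12 stay between 71.8 and 138 CPM and Gm4894 overlaps D1 in 1 library.

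Over all 42870 genes of the joint fit, 3 genes had all 29 D2 libraries above all 32 D1 libraries, which is 0.007% of them. These were Drd2, Ankk1 and Ttc12. The contrast is the one used to choose the members, so the count is given as a description. On unscaled CPM there were 4 such genes, the same 3 and Gm37035, and without D1 SS replicate 1 there were again 3. Ordering the 8 groups of each gene by their mean, neighbouring groups within a class differed by less than the larger of their SDs for all 4 genes. The step from the highest D1 group to the lowest D2 group exceeded it for all 4 genes, with overlap between those groups only for Gm4894. In D2 the lowest group mean of Drd2 was SS, at 628 ± 201 CPM (SD, n = 7), and the highest was MS, at 1186 ± 701 CPM (SD, n = 8). For Ttc12 the order ran the other way, with the lowest D2 mean in MM, at 114 ± 8.08 CPM (SD, n = 7), and the highest in SS, at 130 ± 7.23 CPM (SD, n = 7).

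The difference between the classes ended at the next gene on both sides. Tmprss5, a membrane serine protease gene that ends 133 kb before Gm4894, had a log2 ratio of D2 to D1 of -0.0029 and lay at 1.73 times background in D2. Ncam1, the neural cell adhesion molecule gene that starts 15.9 kb beyond Ttc12, had a ratio of -0.21 and lay at 2.33 times background. Between them the log2 ratios were 1.00 for Gm4894, 3.37 for Drd2, 2.24 for Ankk1 and 1.85 for Ttc12. The ratio was thus highest at Drd2 and lower at each of the 3 genes around it. These ratios include background counts, and Gm4894, Ankk1 and Ttc12 lay at only 1.42, 2.37 and 1.54 times background in D1. The order among these 3 was not tested with the background removed. The 8 other genes within 400 kb of Drd2 had log2 ratios from -0.27 to 0.04, with a median of -0.06. They were Htr3b, Usp28, Cldn25-ps, 1700042D02Rik, Zw10, Tmprss5, Ncam1 and Gm11149, which lies antisense to Ncam1 and shares its reads if strand was not used. Within 1 Mb, the 22 other genes with a mean count of at least 10 had log2 ratios from -0.27 to 0.19. The ratios of these other genes use every library, D1 SS replicate 1 included. In D1, Ncam1 lay at 365 ± 218 CPM (SD) and Gm11149 at 55.6 ± 37.2 CPM. In D2 they lay at 316 ± 78.2 and 46.1 ± 14.0 CPM (SD).

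**Figure D2:**
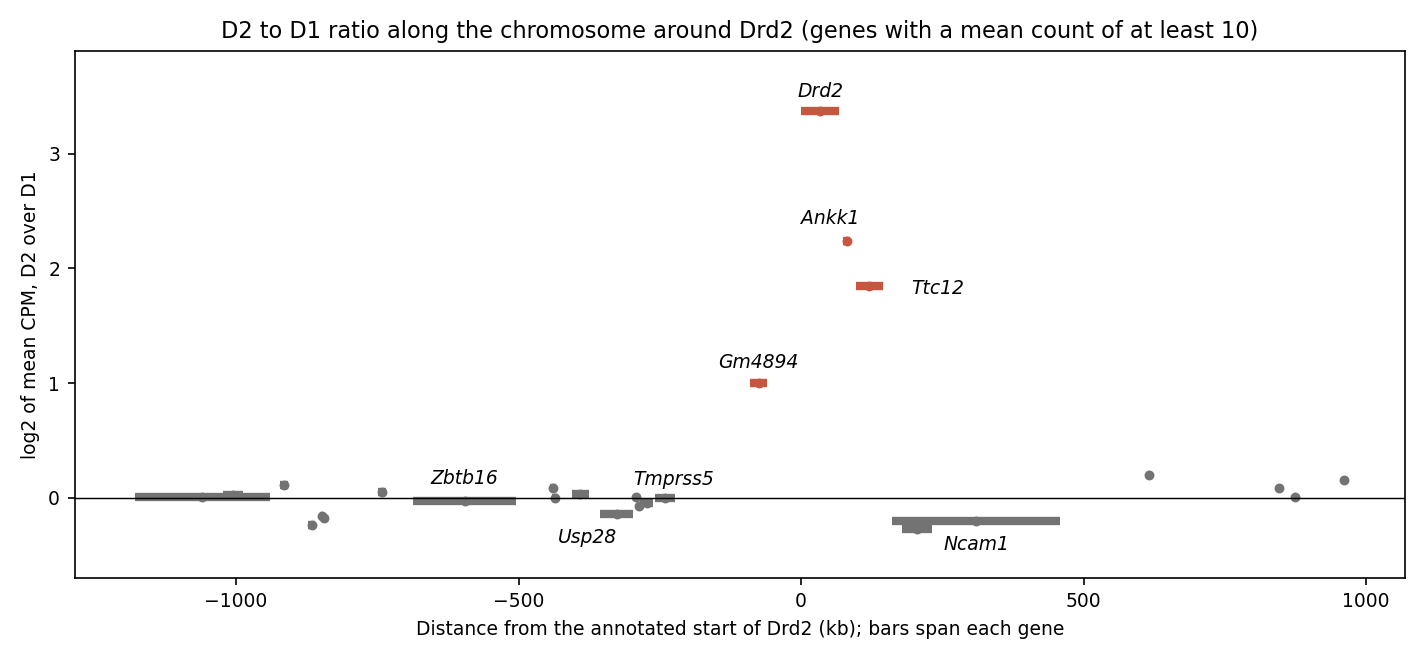
Log2 ratio of the mean CPM of D2 over D1 (vertical axis) for genes within 1 Mb of Drd2 with a mean count of at least 10, by distance from the annotated start of Drd2 in kb; each bar spans a gene. The 4 members, drawn in red, lie between 1.00 and 3.37, and the other 22 genes between -0.27 and 0.19.

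The labelled classes were compared with marker genes. The adenosine A2a receptor gene Adora2a lay at 4.403 times background in D1 and 10.3 times in D2, and the enkephalin precursor gene Penk at 44.6 and 105 times. Of 7 D2 projection neuron markers found among 8 listed, 5 reached 2 times background in D2 and 4 in D1. Drd1 lay at 45.02 times background in D1 and 5.55 times in D2, so markers of either class were above background in both. Without D1 SS replicate 1 the D1 multiples were 33.4 for Drd1, 39.6 for Penk and 3.70 for Adora2a. In these bulk libraries, fewer nuclei of a type and less RNA per nucleus cannot be told apart. Of 7 cholinergic interneuron markers, 0 reached 2 times background in either class, and Chat, the acetylcholine-synthesizing enzyme, lay at 1.505 times in D1 and 1.51 times in D2. Their summed level ran from 41.0 to 124 CPM in D1 and from 91.1 to 124 CPM in D2. The 41.0 CPM was D1 SS replicate 1, and the other D1 libraries ran from 89.8 to 124 CPM. Of 5 dopamine neuron markers, 0 in D2 and 1 in D1 reached 2 times background. The latter, Nr4a2, lay at 2.24 times with all D1 libraries and at 1.32 times without D1 SS replicate 1. Th, the rate-limiting enzyme of dopamine synthesis, lay at 1.54 times in D2. No marker of any list was at 0 counts in a whole class. Of the other dopamine receptor genes, Drd3 lay at 3.001 times background in D1 and 1.80 times in D2. Its highest D1 library lay at 17.1 times. Drd4 lay at 1.15 and 1.05 times, and Drd5 at 0.887 and 0.854 times.

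The treatments were compared within each class to ask whether morphine history, the challenge or both changed the members. In none of the 10 comparisons within a class, and in none of the 3 tests of whether a change from SS differed between the classes, did any of the 4 genes pass an adjusted p of 0.05 in edgeR's quasi-likelihood test. The same test called 0 of 41083 genes in each D1 comparison, 0 of 41125 in each D2 comparison and 0 of 42870 in each test between the classes (0% in all 13). At an unadjusted p under 0.05, MS against SS in D2 gave 13164 genes, MM against SS 5472 and MM against SM 3180. The other D2 comparisons gave 1333 and 1548 genes, and those in D1 550 to 1101. The tests between the classes gave 1053 genes for SM, 10571 for MS and 2891 for MM. DESeq2 called 6236 genes (15.2%) in MS against SS in D2 and 5200 (12.1%) in the same test between the classes. It called 1 gene each for MM against MS in D2 (0.00243%) and for MM between the classes (0.00233%), and 0% in each of the other 9.

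With all libraries, MS against SS gave the numerically largest difference of Drd2 in both classes. In D1 its size fell, without D1 SS replicate 1, below the 0.53 that MM against MS gave with all libraries, as described further below. In D2, the mean of Drd2 was 1186 ± 701 CPM in MS (SD, n = 8) against 628 ± 201 CPM in SS (SD, n = 7). Of the 8 MS libraries 4 lay above all SS libraries, and the other 4 lay within the SS range, so the groups overlapped. The edgeR log2 difference was 0.91 ± 0.36 (SE), with a Benjamini-Hochberg adjusted p of 0.0865. DESeq2 gave 0.96 with an adjusted p of 0.0392, beside its 15.2% of all genes called. Without MS replicate 1, the library with the highest Drd2, the edgeR value was 0.73 with an adjusted p of 0.201. The background density was 0.435 ± 0.0724 CPM per kb in D2 MS (SD, n = 8) and 0.511 ± 0.0498 in D2 SS (SD, n = 7). With that density as a covariate the difference of Drd2 was 0.18, with an edgeR adjusted p of 0.699. The summed level of the D2 projection neuron markers other than Drd2 ran from 842 to 1553 CPM in MS and from 756 to 1053 CPM in SS. The part of the density and of the cell makeup in this difference was not tested further.

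The neighbours gave smaller values in this comparison, in either direction. Ankk1 in D2 was 0.44 ± 0.20 (SE) higher on the log2 scale in MS than in SS, and 3 of 8 MS libraries lay above all SS libraries. Its edgeR adjusted p was 0.133, and with the density as a covariate the difference was 0.05. Ttc12 had the opposite sign, -0.21 ± 0.08 (SE), with 2 of 8 MS libraries below all SS libraries and an adjusted p of 0.0827. Without D2 MS replicate 3, its lowest library, the value was -0.13, and with the density as a covariate it was -0.21. Gm4894 gave -0.18 ± 0.09 (SE), with an edgeR adjusted p of 0.145, and -0.10 without D2 MS replicate 3. None of these 4 differences passed the test.

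In D1, the sign of the Drd2 difference was reversed, at -0.69 ± 0.27 (SE) for MS against SS with an edgeR adjusted p of 0.824. Its mean was 63.2 ± 13.0 CPM in MS (SD, n = 9) and 103 ± 72.5 CPM in SS (SD, n = 8), and no MS library lay below all SS libraries. Without D1 SS replicate 1 the SS mean was 78.9 ± 28.2 CPM (SD, n = 7) and the log2 difference was -0.32. With the density as a covariate it was -0.24. Ankk1 in D1 gave -0.30 ± 0.15 (SE), with an edgeR adjusted p of 0.824, and Ttc12 and Gm4894 gave 0.15 and 0.11. The test of whether the MS difference from SS differed between the classes gave a log2 value of 1.62 ± 0.45 (SE) for Drd2 and 0.76 ± 0.25 for Ankk1, both with an edgeR adjusted p of 0.149. The unadjusted p values were 0.000668 and 0.00364. DESeq2 gave 1.88 and 0.89, both with an adjusted p of 0.0404. Without D1 SS replicate 1, edgeR gave 1.24 for Drd2 and 0.69 for Ankk1, both with an adjusted p of 0.647. With the density as a covariate it gave 0.78 and 0.46, both with an adjusted p of 0.846.

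In none of the remaining comparisons did a member pass edgeR's test. In D1 MM against MS, Drd2 gave a log2 value of 0.53 ± 0.28 (SE, edgeR adjusted p of 0.988), with 3 of 7 MM libraries above all MS libraries. Ankk1 gave 0.30 ± 0.15 there, Ttc12 -0.07 and Gm4894 -0.13. In D2 MM against MS the values were -0.25 ± 0.35 (SE) for Drd2, -0.35 ± 0.20 for Ankk1, 0.0019 for Ttc12 and 0.12 for Gm4894. In D2 MM against SS, Drd2 was 0.66 ± 0.36 (SE) higher on the log2 scale, with 4 of 7 MM libraries above all SS libraries, 1 below them and an edgeR adjusted p of 0.400. Ttc12 in the same comparison was -0.21 ± 0.08 (SE), with 5 of 7 MM libraries below all SS libraries and an edgeR adjusted p of 0.361. Ttc12 was also -0.20 ± 0.08 in MM against SM in D2, again with 5 of 7 libraries below the whole SM range and an edgeR adjusted p of 0.608. The Ttc12 values of these 2 comparisons share the MM libraries. The morphine challenge alone, SM against SS, gave log2 values of 0.14 for Drd2, -0.04 for Ankk1, -0.01 for Ttc12 and -0.12 for Gm4894 in D2. In D1 it gave -0.19, -0.09, 0.13 and 0.03 in the same order. For Drd2 that D1 value was 0.18 without D1 SS replicate 1 and -0.48 without D1 SM replicate 2.

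**Figure D3:**
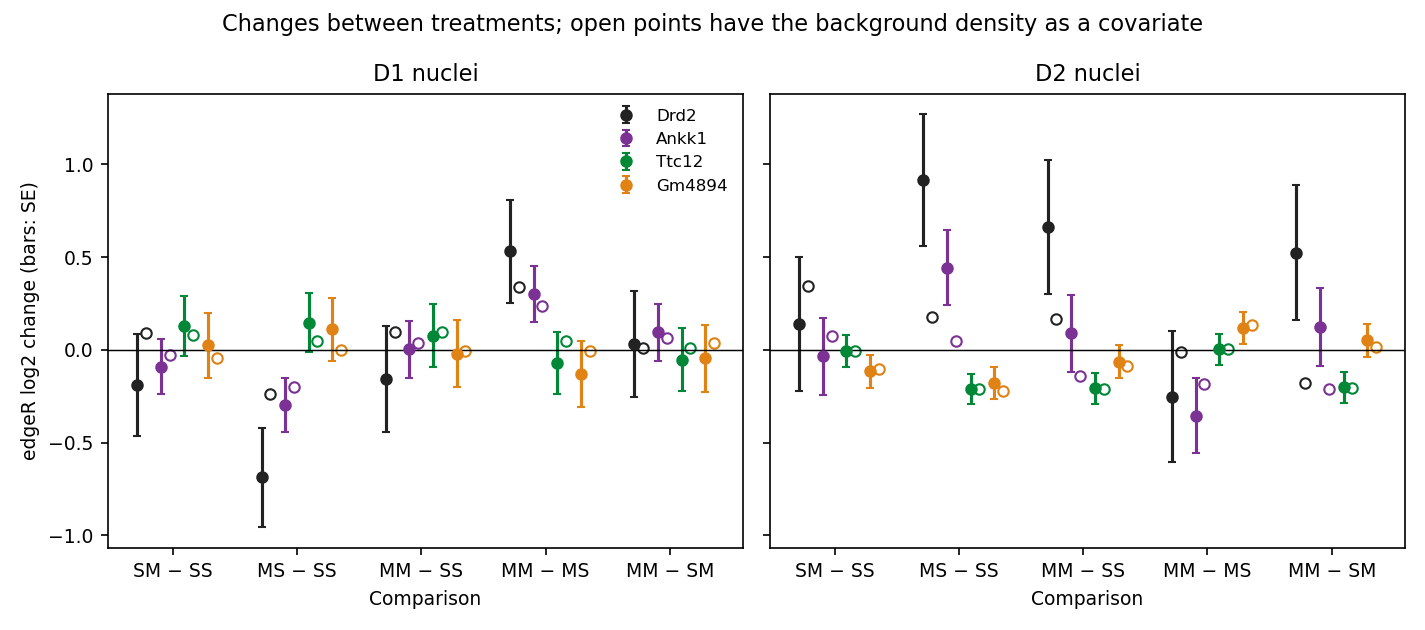
EdgeR log2 differences between treatments (vertical axis) for the 4 genes in D1 (left) and D2 (right); filled points are the fit without a covariate with bars of 1 SE, and open points have the background density as a covariate. The filled Drd2 point for MS against SS is at 0.91 in D2 and -0.69 in D1, and the open points are at 0.18 and -0.24.

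Levels of the members followed the background density of the library to different degrees. Within D2, after removal of group means, log2 Drd2 correlated with log2 density with Pearson's r of -0.87 and Spearman's rho of -0.86 over 29 libraries. Ankk1 gave -0.86 and -0.85. Both had a permutation p of 1e-05, the smallest that 100000 draws can give, and an adjusted p of 2e-05 over the 8 relations with density. Ttc12 gave r of -0.19 and rho of -0.18, with adjusted permutation p values of 0.403 and 0.395. Gm4894 gave r of -0.38 and rho of -0.42, with adjusted permutation p values of 0.0737 and 0.0439. In D2 the 2 genes with the higher levels per kb were thus lower in libraries with more background, while no such relation passed for Ttc12. TMM factors rose with density, for example 0.820 at 0.325 CPM per kb in MS replicate 2 and 1.16 at 0.650 in MM replicate 7. Level and density are also shares of the same library total. These p values thus do not test a relation apart from the scaling. Without the 2 libraries farthest from the median density, r was -0.85 for Drd2 and -0.81 for Ankk1.

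In D1 the relation had opposite signs among the members. Drd2 gave r of -0.79 and rho of -0.75 over 32 libraries, with adjusted permutation p values of 0.000128 and 2e-05. Ankk1 gave r of -0.46 and rho of -0.37, with adjusted permutation p values of 0.0151 and 0.0439. Ttc12 gave r of 0.93 and rho of 0.79, with adjusted permutation p values of 2e-05 and 3.2e-05. Gm4894 gave r of 0.93 and rho of 0.85, both with an adjusted permutation p of 2e-05. In D1, Ttc12 and Gm4894 lay at only 1.54 and 1.42 times background. A level so near the background largely moves with it, so these p values do not test a separate relation. Without D1 SS replicate 1 and D1 SM replicate 2, the 2 libraries farthest from the median density, r was -0.53 for Drd2, -0.19 for Ankk1, 0.76 for Ttc12 and 0.80 for Gm4894. The relation of Ankk1 in D1 thus rested on those 2 libraries. TMM factors followed the same libraries, so scaling enters these values.

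**Figure D4:**
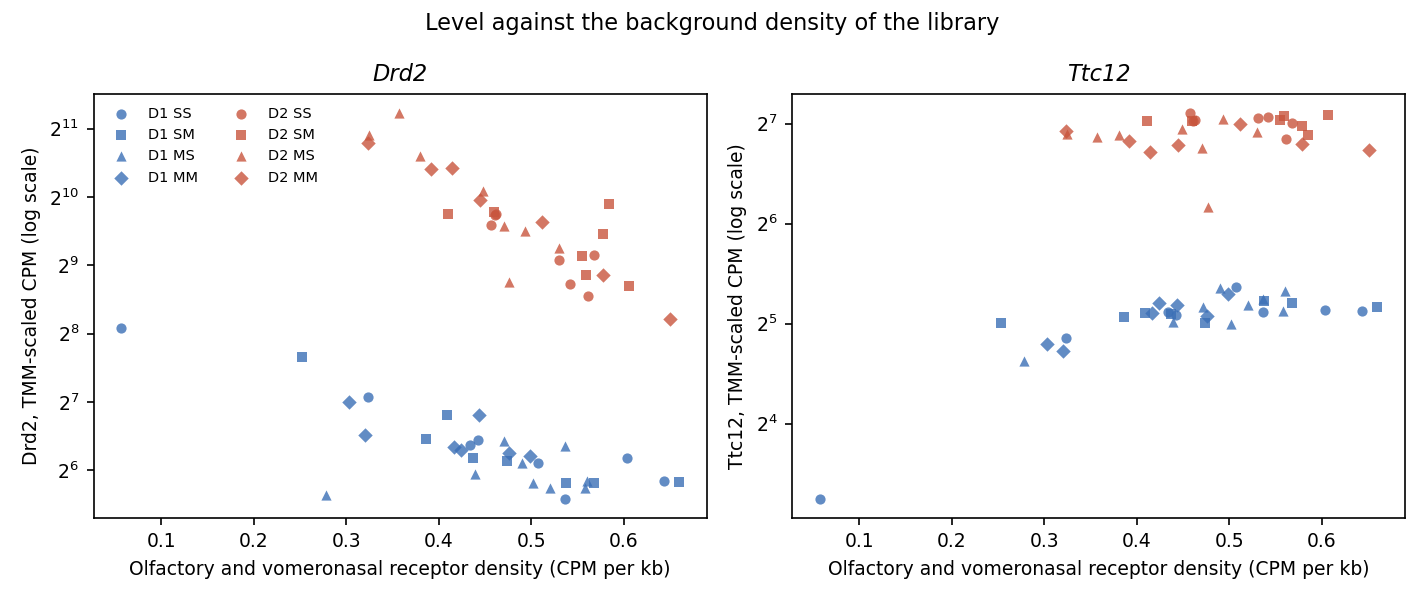
TMM-scaled CPM (log scale) of Drd2 (left) and Ttc12 (right) in each library against the background density in CPM per kb; colours are classes and shapes are treatments. Drd2 is lower at higher density in both classes, with D1 SS replicate 1 at the far left, while Ttc12 in D2 lies between 105 and 138 CPM across densities, except for D2 MS replicate 3 at 71.8 CPM.

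Across D2 libraries, Ankk1 was the neighbour that varied most closely with Drd2. Across all D1 libraries, with group means removed, only Ankk1 had a positive r, and Gm4894 had an r of -0.75. In D2, with group means removed, Ankk1 gave r of 0.92 and rho of 0.93 over 29 libraries. Each had an adjusted permutation p of 6e-05 over the 6 relations between Drd2 and a neighbour. Without the 2 libraries farthest from the median Drd2, r was 0.90, and with the density regressed out it was 0.67. In D1, r was 0.73 and rho was 0.65 over 32 libraries, with adjusted permutation p values of 6e-05 and 0.00036. There r was 0.60 without D1 SS replicate 1 and D1 SM replicate 2, 0.67 with the density regressed out, and 0.35 without TMM scaling (adjusted permutation p of 0.105). The D2 relation of Drd2 and Ankk1 thus passed under each setting tried with a permutation p. Leaving out the 2 farthest libraries gave r alone, without a p. The D1 relation depended on the scaling.

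Ttc12 and Gm4894 showed no such steady relation to Drd2. In D2, Ttc12 gave r of 0.34 and rho of 0.16, with adjusted permutation p values of 0.139 and 0.436. Gm4894 gave r of 0.58 and rho of 0.51, with adjusted permutation p values of 0.00283 and 0.0117, but r of -0.03 without TMM scaling. In D1, Ttc12 gave r of -0.61 and rho of -0.45, with adjusted permutation p values of 0.0101 and 0.00987. That r was -0.20 without the 2 farthest libraries and 0.51 with the density regressed out, so its sign depended on the background. Gm4894 in D1 gave r of -0.75 and rho of -0.63, with adjusted permutation p values of 0.00042 and 0.00036. Without the 2 farthest libraries r was -0.45, and with the density regressed out it was -0.08.

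**Figure D5:**
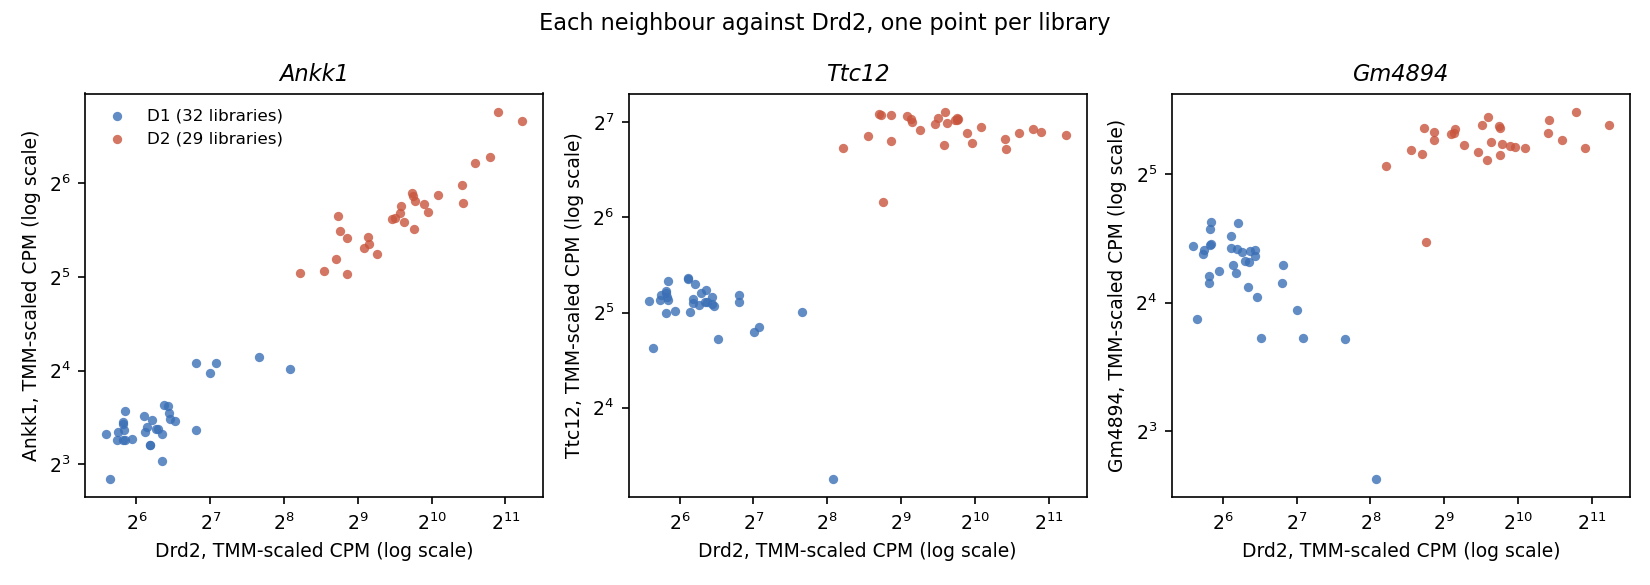
TMM-scaled CPM of Ankk1, Ttc12 and Gm4894 against that of Drd2 in each of 61 libraries, on log scales, with D1 in blue and D2 in red. Ankk1 lies along a rising band within D2 (r of 0.92 with group means removed), while Ttc12 and Gm4894 form separate clouds for the 2 classes.

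Ankk1 was also the gene most like Drd2 over all 61 libraries, with r of 0.98 among the 27252 genes whose mean log2 CPM was at least 1. Ttc12 ranked 8th with r of 0.85 and Gm4894 ranked 14th with r of 0.75. This ranking runs over both classes, and the members were chosen for differing between them. Leaving out the members and genes with systematic, pseudogene, ribosomal or mitochondrial names, the 5 most alike were Adora2a at 0.93, ENSMUSG00000118401.1, which has no symbol here, at 0.92, Gpr6 at 0.88, P2ry1 at 0.87 and Oprd1 at 0.86. Adora2a encodes the adenosine A2a receptor, Gpr6 an orphan receptor of indirect pathway neurons, P2ry1 a purine receptor and Oprd1 the delta opioid receptor. Over the means of the 8 groups, Ankk1 again ranked 1st, at 0.998, followed among named genes by Penk at 0.99 and by Ndnf, a secreted neuronal factor, at 0.99. Ttc12 and Gm4894 ranked 12th and 13th there.

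Within D2 alone the order was different. With group means removed, the genes most like Drd2 over 29 libraries were Bcl11a, Ppp3ca, Grin2b, Ttc8 and Gria1, each at r of 0.96. Ppp3ca encodes a catalytic subunit of calcineurin, and Grin2b and Gria1 encode subunits of NMDA and AMPA glutamate receptors. With D1 SS replicate 1 included, all 5 had a D1 mean at least as high as their D2 mean. For Grin2b the means were 895 ± 758 CPM (SD) in D1 and 743 ± 251 CPM (SD) in D2. Ankk1 ranked 499th, at 0.92, Gm4894 ranked 9012th and Ttc12 10836th. The libraries compared share the background and scaling values described above.

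Genes that act with the D2 receptor were examined as a list of 40 G protein subunits, regulators, kinases, arrestins, phosphatases and channels, all of which were tested. None passed edgeR's test, fitted without a replicate block, in any of the 13 comparisons. In D2 MS against SS, 37 of 40 had a positive log2 difference and the median was 0.46, against -0.05 over all genes tested. Among them, Ppp1r1b, which encodes the protein phosphatase regulator DARPP-32, gave 1.03 ± 0.32 (SE, edgeR adjusted p of 0.0713). Rgs9, which speeds the turning off of G proteins, gave 1.10 ± 0.36 (edgeR adjusted p of 0.0714), and the adenylyl cyclase gene Adcy5 gave 1.03 ± 0.37 (edgeR adjusted p of 0.0744). DESeq2 called 26 of the 40, beside 15.2% of all genes. With a replicate block, edgeR called 28 of the 40, beside 8595 of all 41125 genes. With the density as a covariate, the median was 0.12 and edgeR called 0.

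The same list had the opposite sign in D1, where 38 of 40 members were negative in MS against SS with a median of -0.42. That sign rested on D1 SS replicate 1: without it 31 of 40 were positive and the median was 0.04. With the density as a covariate, 30 of 40 were positive and the median was 0.06. In the test between the classes, 39 of 40 were positive with a median of 0.82. DESeq2 called 25 of the 40 there, beside 12.1% of all genes, with a median of 1.10. The edgeR median was 0.38 without D1 SS replicate 1 and 0.12 with the density as a covariate. Of the 5 dopamine receptor genes, none passed edgeR's test in any comparison without a replicate block. DESeq2 called Drd1 and Drd2 in D2 MS against SS and in the same test between the classes. In D2 MS against SS, Drd1 had a log2 difference of 0.75 ± 0.24 (SE, edgeR adjusted p of 0.0713), of the same sign as Drd2, while Drd3, Drd4 and Drd5 gave -0.03, -0.22 and -0.21.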

How the data were processed

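Total RNA of sorted nucleus accumbens nuclei was measured in 61 libraries. Reads were assigned to genes by featureCounts on mm10, and DESeq2 is also named, per the submitters' processing notes. No aligner, annotation release or strand setting is named there. All results rest on the deposited raw counts of the authors. The deposited FPKM values of the authors served only to recover gene lengths, and for 54281 of 54281 genes these were the full span, introns included, in GENCODE M21 (relative tolerance of 1e-06). Of 55401 identifiers, 55141 matched that release without their version, and coordinates come from it.

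Counts were fitted with edgeR 4.0.16 in R 4.3.3 (TMM, filterByExpr, robust quasi-likelihood, two-sided, Benjamini-Hochberg over all genes, called at an adjusted p under 0.05), with the 4 treatments of a class together and all 61 libraries for tests between classes. The procedure was tested on simulated counts. DESeq2 1.42.0, other scaling, no filter, a replicate block, the background density as a covariate and leaving out libraries that stand apart were alternatives. Leaving out D1 SM replicate 2, D2 MS replicate 1 or D2 MS replicate 3, and the relations with density, were added after seeing the data. Correlations used log2 CPM with group means removed and 100000 permutations of libraries within groups, two-sided.

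The members and lists were chosen with earlier results of these data known. Named genes were the 4 members, every gene within 400 kb of Drd2, the 5 genes most like Drd2 in each of 3 settings (leaving out systematic and ribosomal or mitochondrial names), called list genes, and dopamine receptors; Ppp1r1b, Rgs9 and Adcy5 and marker genes were named after their values were seen. Replicate numbers showed no pairing of libraries across groups on average. Deviations of same-numbered libraries had a mean r of 0.0514 over 202 pairs, from -0.905 to 0.941. For libraries of other numbers the mean r was 0.00121 over 1424 pairs. A mean cannot exclude pairing in part of the groups. No libraries of a group agreed within sampling noise (204 pairs, chi-square per degree of freedom of at least 1.86). The marker lists for astrocytes, microglia, endothelial cells, oligodendrocytes, cortical neurons and other interneurons had 1, 0, 0, 2, 4 and 2 genes in D1, and 0, 0, 0, 2, 0 and 1 in D2, at 2 times background or more. Without D1 SS replicate 1 the D1 counts were 0, 0, 0, 2, 1 and 2.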

Additional observations from a re-analysis of the deposited data

Results flagged for a closer look

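Of 32 combinations of gene and group, 6 had a library set apart from the others by Dixon's criterion, which chance gives for about 1 in 20. Drd2 in D1 SS replicate 1 was 270 CPM, with the next highest of the 8 libraries at 135 CPM. Without TMM scaling Drd2 did not stand apart there, at 105 CPM against 119 CPM in D1 SS replicate 4. Ttc12 in D1 SS replicate 1 was 9.52 CPM, with the next lowest at 28.9 CPM. That library had a density over olfactory and vomeronasal receptor genes of 0.057 CPM per kb, where other D1 libraries ran from 0.253 to 0.659. After TMM scaling it had the highest Drd1 of D1, at 269.7 CPM, a value that its TMM factor of 0.388 raises. Unscaled Drd1 was not compared. Sums over markers of other cell types also stood apart in it. They were 769 CPM over the cortical glutamatergic list and 836 CPM over the astrocyte list, against at most 196 and 293 CPM in the other D1 libraries. The low TMM factor raises these sums as well. Of that astrocyte sum, 787 CPM came from Slc1a2, and the other listed astrocyte genes were each at their lowest of D1. Slc17a7, the vesicular glutamate transporter gene of cortical neurons, lay at 363 CPM there. Drd2 in D1 SM replicate 2 was 202 CPM against a next highest of 112 CPM, and Ankk1 there was 17.7 CPM against 11.2 CPM. Its density, 0.253 CPM per kb, was the second lowest of D1.

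Ttc12 in D2 MS replicate 3 was 71.8 CPM, with the next lowest of the 8 libraries at 108 CPM. Gm4894 in the same library was 22.1 CPM, with the next lowest at 34.6 CPM. The density of this library, 0.476 CPM per kb, lay near the median of the other D2 libraries, 0.482, and its Adora2a level, 85.8 CPM, near their median of 77.7 CPM. Its Drd1 level of 15.4 CPM lay within their range of 5.37 to 27.3 CPM. Drd2 at 432 CPM and Ankk1 at 44.9 CPM in this library lay within the range of the other D2 libraries.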

How the results depend on the processing

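Of 388 alternatives of the 52 log2 values of members, 348 kept their sign and side of the threshold, 37 changed sign without a call and 3 passed. Those 3 were in DESeq2: Drd2 at 0.96 in D2 MS against SS, and Drd2 at 1.88 and Ankk1 at 0.89 for MS between the classes. The number of genes called, 0 by edgeR, was 6236 in DESeq2 and 8595 with the replicate block for MS against SS in D2. It was 5200 in DESeq2 for MS between the classes, and 1 in DESeq2 for MM between the classes and for MM against MS in D2, where it was also 1 with the density as a covariate. With the replicate block, Drd2 in D2 MS against SS was 0.88. There edgeR called 28 of the 40 D2 receptor signalling genes and Drd1 among the 5 dopamine receptors, beside 8595 of all 41125 genes. The causes were not tested.

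With the density as a covariate, these log2 values changed sign: Drd2 to 0.088 (SM against SS) and 0.099 (MM against SS) in D1 and -0.18 (MM against SM) in D2, and Ankk1 to 0.074 (SM against SS), -0.14 (MM against SS) and -0.21 (MM against SM) in D2 and, between the classes, -0.013 (SM) and -0.032 (MM). Ttc12 in D1 went to 0.048 (MM against MS) and 0.011 (MM against SM), and Gm4894 to -0.043 (SM against SS) and 0.037 (MM against SM) in D1 and 0.028 (MM) between the classes. In DESeq2, and with its size factors in edgeR, Gm4894 was -0.016 and -0.0093 for SM against SS in D1 and 0.028 and 0.017 for MM between the classes. In that order Ankk1 was -0.10 and -0.11 for MM against SS in D1, and Ttc12 was -0.0064 and -0.0064 for MM against MS in D2 (-0.0050 with no filter). The replicate block gave 0.029 for Gm4894 and -0.023 for Ankk1 in D1 MM against SS. Over the fits that left out a library, the sign changed in these ranges. In D1 SM against SS they were -0.48 to 0.18 for Drd2, -0.0076 to 0.14 for Ttc12 and -0.10 to 0.086 for Gm4894. In D1 MM against SS they were -0.17 to 0.22 for Drd2, -0.0050 to 0.067 for Ankk1 and -0.058 to 0.068 for Ttc12, and in D1 MS against SS -0.022 to 0.10 for Gm4894. In D2, Ttc12 ran from -0.0062 to 0.0044 (SM against SS) and from -0.074 to 0.011 (MM against MS). Between the classes for SM, the ranges were -0.037 to 0.63 for Drd2, -0.0043 to 0.18 for Ankk1 and -0.15 to 0.0050 for Ttc12, and for MM -0.034 to 0.10 for Gm4894. The largest original size among values that changed sign was 0.52.

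Of 48 alternatives of the log2 differences of D2 from D1, 47 moved by less than their spread, and Ttc12 in SM moved from 1.90 to 1.81 with the density as a covariate. In D1 without TMM factors, r with Drd2 was 0.35 for Ankk1, -0.25 for Ttc12 and -0.37 for Gm4894, and in D2 it was -0.27 for Ttc12 and -0.029 for Gm4894. With the density regressed out, r in D1 was 0.51 for Ttc12 and -0.080 for Gm4894. Without D1 SS replicate 1, Ttc12 gave -0.23. Another scaling, DESeq2's size factors, shifted the median of all genes to -0.11 for MM against SS in D1 and to 0.11 for SM between the classes.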
